A study of Bos taurus with 64 samples.

Results

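The comparison described here set skeletal muscle of Holstein-Friesian steers fed a high-concentrate diet against muscle of Holstein-Friesian steers fed zero-grazed grass. It used 32 of the 64 libraries of the series, chosen by breed and diet from the labels: 16 on grass and 16 on concentrate, with 8 steers of low and 8 of high residual feed intake (RFI) on each diet. RFI is the feed an animal eats beyond or below what its size and growth predict, and a low-RFI animal is the more feed-efficient. The other 32 libraries, from Charolais steers (a beef breed) in the same 4 groups of 8, enter only where the breeds are compared. Grass meant fresh cut perennial ryegrass (Lolium perenne) offered freely. Concentrate meant a barley-based mix offered freely, with a limited amount of grass silage. Rolled barley made up 86% of the mix, soya 6%, molasses another 6% and a supplement of minerals and vitamins the last 2%. Intake had been recorded in 77 Holstein-Friesian steers, each phase lasted 70 days with 14 days between them, and muscle was sampled when a phase ended. The sources used here name neither the muscle nor the steers' age.

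Grass was always the earlier phase and concentrate the later one, so diet cannot be told apart from the order of the phases, from age and growth between them, or from the handling of each phase's samples. The 32 libraries came from 31 steers, since 1 high-RFI steer gave a library on both diets (replicate 1 of each). Muscle is a mixed tissue, and in bulk samples fewer cells of a type and less RNA per cell cannot be told apart.

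MicroRNAs (miRNAs) are short RNAs that, loaded into an Argonaute protein, bind partly complementary sites in messenger RNAs and lower their translation or stability. In skeletal muscle a small set of them, the myomiRs (miR-1, miR-133, miR-206, miR-486, and miR-208b and miR-499 from myosin genes), is made mainly by the muscle fibres. Others come from connective tissue, vessels and blood, and many are transcribed together from clusters, so that neighbours often share a level. The largest such cluster in mammals lies in the imprinted DLK1-DIO3 region. It is transcribed from the maternal chromosome, and the callipyge mutation of sheep, which causes overgrown hindquarter muscle, lies in the same region.

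The libraries held between 4795950 and 12245155 counts (median 8258880), and between 425 and 598 miRNAs had a count. Most counts belonged to a few names. miR-10b, encoded within the HOXD genes, took 57.5% ± 10.5 of the counts (SD, n = 32), and the 5 most abundant miRNAs together 82.0%. Libraries of a group were separate animals, and the closest pair of all 32 differed by more than counting noise allows (a chi-square of 115 for each degree of freedom). The labelled tissue carried its markers: the summed level of the muscle list, in CPM (counts brought to a common library size with edgeR's TMM factors), was between 90548 and 238010 in every library. Its most abundant members were miR-486 and miR-133a, with means of 92023 and 70515 CPM, while miR-1 had a mean of 261. Epithelial and neuronal markers were near 0, with highest summed levels of 21.6 and 6.75 CPM. A pair of grass libraries stood apart: high-RFI grass replicate 1 had the lowest miR-10b share, 19.3% (95% Wilson interval 19.32 to 19.36, counting error only), and low-RFI grass replicate 2 the highest level of miR-143. They were kept. Without them 64 miRNAs were called for diet in place of 72, and of the miRNAs named below miR-214, miR-502b, miR-22-5p (adjusted p = 0.0568), miR-193a-5p (0.0783), miR-6119-5p (0.0664) and miR-34c (0.0845) were no longer called by edgeR.

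Of 304 miRNAs tested, 72 passed a Benjamini-Hochberg adjusted p of 0.05 in edgeR's quasi-likelihood test with RFI class as a covariate (23.7%): 30 were higher on concentrate (9.87%) and 42 lower (13.8%). These shares are the background for the counts called in each list below, and no list was tested as a set. The median log2 difference of all tested miRNAs, concentrate minus grass, was 0.03, with quartiles of -0.20 and 0.24. When libraries were scaled to total counts, of which miR-10b is the main part, the median of all miRNAs moved to -0.29 and the split became 5 higher and 57 lower. Scaled to total counts without miR-10b, it was 18 higher and 40 lower. All 42 falls passed under total-count scaling, and 5 of the 30 rises did: miR-1, miR-378d, miR-211, miR-11977 and miR-2284h-5p. That scaling moved the median down, which by itself enlarges falls and shrinks rises. The contrast therefore does not show the falls to be firmer. Rises and falls below are both differences relative to the bulk of the miRNAs. Of the rises, 5 (miR-192, miR-22-5p, miR-342, miR-361 and miR-423-3p) changed sign with total counts. The counts of miR-2284h-5p held fractions that differed between the phases, as described below.

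The libraries separated by diet. The first principal component of log2 CPM held 19.1% of the variance, and on it 15 of 16 grass libraries lay below every concentrate library, while 14 of 16 concentrate libraries lay above every grass library. Of single miRNAs, 3 had no overlap between the 16 grass and the 16 concentrate libraries (0.987% of those tested): miR-2285av, miR-380-3p and miR-2284h-5p. For miR-2285av and miR-2284h-5p the counts held fractions that fit different whole-number divisors on grass and on concentrate, as described below. Whether this has a part in their separation was not tested.

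**Figure D1:**
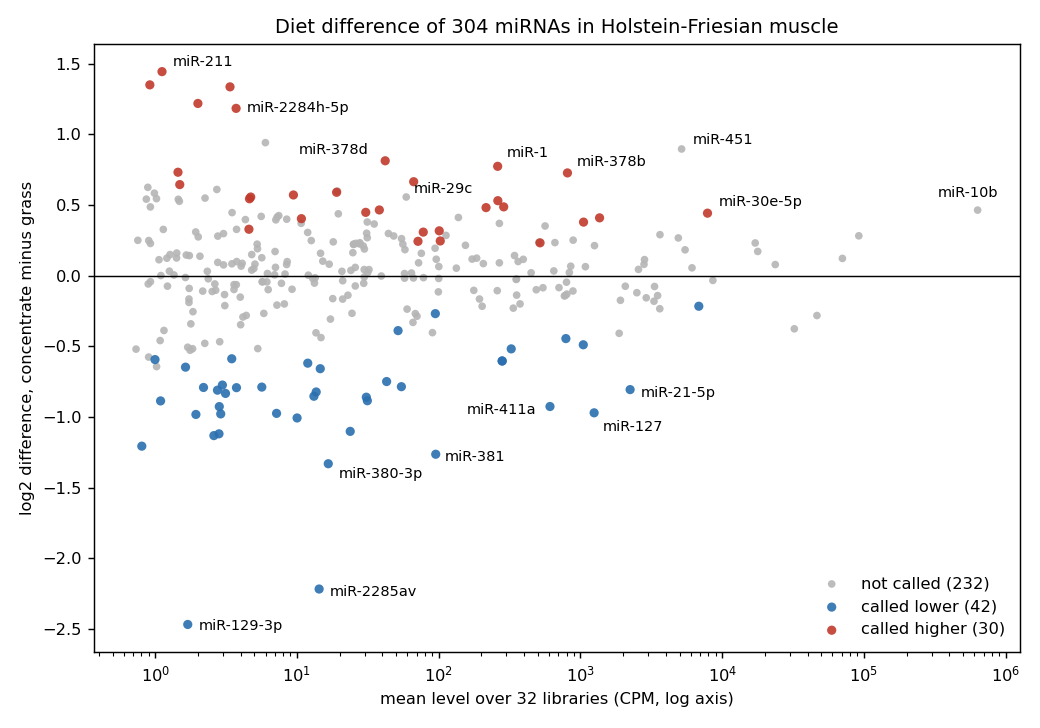
Log2 difference between concentrate and grass (edgeR, vertical axis) against the mean level in CPM over 32 libraries (horizontal axis, log scale) for 304 miRNAs in Holstein-Friesian muscle. Blue points are the 42 miRNAs called lower and red points the 30 called higher at an adjusted p of 0.05. Among miRNAs of 100 CPM or more, miR-127, miR-411a and miR-21-5p lie lowest and miR-1 and miR-378b are the highest of those called.

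The DLK1-DIO3 miRNAs fell together on concentrate. Of 25 tested members 22 were lower and 0 higher by edgeR, and all 25 had a log2 difference below 0. The median over the 25 was -0.86, against 0.03 for all tested miRNAs. A further 30 names of this cluster in the table were too scarce to test, and 3 of them had no count in any of the 32 libraries. The summed level of the cluster ran from 1978 to 4032 CPM on grass (median 2747) and from 920 to 2128 on concentrate (median 1373).

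miR-127, the most abundant member, lies antisense to the imprinted gene RTL1 and can direct the cutting of its transcript. It ranged from 1027 to 2564 CPM on grass (median 1564) and from 534 to 1270 on concentrate (median 802). Every concentrate library was below the grass median, and the ranges met only between 1027 and 1270 CPM. Its fall was 1.96-fold (log2 -0.97 ± 0.13 standard error, adjusted p = 2.92e-07).

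miR-381 stood between 69.6 and 210 CPM on grass (median 130) and between 32.9 and 83.1 on concentrate (median 50.8). All 16 concentrate libraries lay below the grass median, and the fall was 2.40-fold (log2 -1.26 ± 0.14, adjusted p = 1.54e-08). miR-380-3p separated the diets in full: its lowest grass library had 14.61 CPM and its highest concentrate library 14.55, with medians of 23.5 and 9.14. Its log2 difference was -1.33 ± 0.11 (adjusted p = 2.22e-11), the largest fall of the cluster.

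miR-411a, the second most abundant member, ran from 535 to 1041 CPM on grass (median 765) and from 268 to 623 on concentrate (median 385). The log2 difference was -0.92 ± 0.11 (adjusted p = 4.37e-08), with 16 of 16 concentrate libraries below the grass median. miR-410, from the far end of the cluster, had 21.8 to 44.1 CPM on grass (median 31.8) and 8.53 to 23.8 on concentrate (median 14.8), a log2 difference of -1.10 ± 0.13. Among the 22 called members, 15 had all 16 concentrate libraries below the grass median.

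Among the scarcer called members miR-409a stood at -0.86 ± 0.24, miR-154c at -0.85 ± 0.16, miR-136 at -0.82 ± 0.12 and miR-379 at -0.66 ± 0.19. miR-409a was the least separated of these, with 13 of 16 concentrate libraries below the grass median. The 3 members that did not pass were miR-376e (-0.51 ± 0.20, adjusted p = 0.0671), miR-1185 (-0.57 ± 0.25, 0.0933) and miR-494 (-0.47 ± 0.20, 0.0908). All 22 calls held when any of the 32 libraries was left out and in every other setting that tested them.

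**Figure D2:**
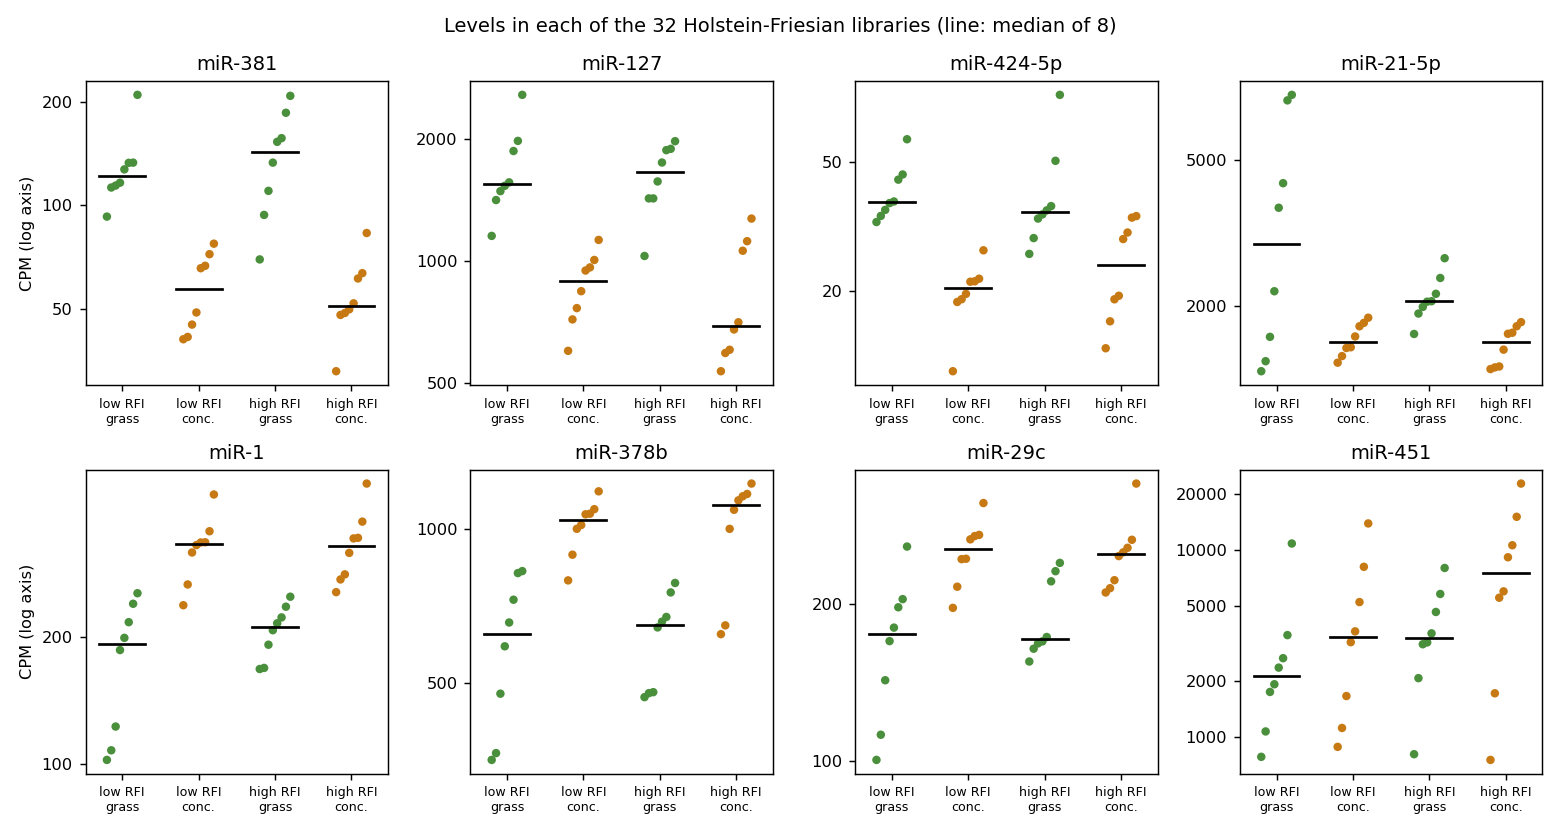
CPM in each of the 32 Holstein-Friesian libraries (vertical axis, log scale) for 8 miRNAs, by RFI class and diet, with a line at the median of each group of 8. For miR-381 and miR-127 the concentrate libraries sit below nearly all grass libraries in both RFI classes, miR-1 and miR-29c sit above the grass median in all 16 concentrate libraries, and the erythrocyte miRNA miR-451 overlaps widely.

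The X-linked cluster of miR-424, miR-450 and miR-542 also fell, in all 4 members tested (median log2 -0.94). miR-424, known as miR-322 in mice, slows the cell cycle and is induced as myoblasts differentiate. miR-424-5p ran from 26 to 80.2 CPM on grass (median 36.0) and from 11.3 to 34.0 on concentrate (median 20.5). It was 1.85-fold lower (log2 -0.88 ± 0.15, adjusted p = 2.56e-05), with all 16 concentrate libraries below the grass median. miR-450a stood at -1.01 ± 0.19, miR-450b at -0.78 ± 0.19 and miR-542-5p at -1.13 ± 0.17. These 4 calls also held without any 1 library and in every other setting that tested them. Together the imprinted and the X-linked cluster held 26 of the 42 falls.

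Of 6 fibroblast markers 4 were lower on concentrate and 0 higher (median log2 -0.60), though miR-199a-3p and miR-199c have nearly identical counts (r of 1 and median ratio of 1 over the libraries) and are in effect 1 value. The summed level of the list ran from 2142 to 8441 CPM on grass and from 1902 to 3187 on concentrate. The median of this list was below 0, as were those of the clusters above, and any link between them was not tested. In Charolais steers 0 of the 6 fibroblast markers were called (median log2 0.04). miR-21-5p, which rises in scarring tissue and in activated fibroblasts, ranged from 1325 to 7510 CPM on grass (median 2105) and from 1343 to 1854 on concentrate (median 1594). The high values were those of a few grass steers: 4 low-RFI grass libraries lay between 3697 and 7510 CPM, while the lowest grass library lay below every concentrate library. Its log2 difference was -0.81 ± 0.19 (adjusted p = 0.00143), and 16 of 16 concentrate libraries were below the grass median.

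miR-199a-3p, from an intron of dynamin genes and abundant in mesenchymal cells, stood at 183 to 917 CPM on grass (median 287) and 154 to 498 on concentrate (median 197), a log2 difference of -0.60 ± 0.18 (adjusted p = 0.0104). miR-214, its neighbour, stood at -0.62 ± 0.22 (adjusted p = 0.0381). That call rested in part on high-RFI grass replicate 2, its highest library at 41.4 CPM: without it the difference was -0.43 (adjusted p = 0.108), and without the pair of libraries standing apart it was -0.64 (adjusted p = 0.0503). The miR-214 call was lost in 9 of 32 fits that left out 1 library. It was also lost with total counts without miR-10b (adjusted p = 0.0511) and with no filter. The other members, miR-199a-5p (-0.40 ± 0.20, adjusted p = 0.144) and miR-199b (-0.10 ± 0.12, adjusted p = 0.571), did not pass.

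Outside these groups 7 falls of miRNAs with 40 CPM or more were called. miR-152, which shares its seed with miR-148a and can repress the DNA methyltransferase DNMT1, ran from 26.2 to 126 CPM on grass (median 47.0) and from 23.6 to 40.7 on concentrate (median 31.3). Its log2 difference was -0.75 ± 0.17 (adjusted p = 0.00113). miR-128, which is transcribed from introns of R3HDM1 and ARPP21, stood at -0.52 ± 0.14, and miR-28, from an intron of LPP, at -0.39 ± 0.10. miR-660 (-0.49 ± 0.17), miR-151-5p (-0.44 ± 0.15), miR-181b (-0.27 ± 0.09) and miR-27b (-0.22 ± 0.08) were nearer the threshold, with adjusted p between 0.0252 and 0.0376. Of these, miR-151-5p was not called without the steer sampled on both diets, and neither miR-151-5p nor miR-660 was called by limma-voom. The calls of miR-151-5p and miR-660 were each also lost in 4 of 32 fits that left out 1 library. miR-181b was not called with total counts without miR-10b (adjusted p = 0.0511) or with no filter (0.0927). miR-27b was not called with no filter (adjusted p = 0.138), with fractional counts left out (0.0584), in the fit of 64 libraries (0.057) or without high-RFI concentrate replicate 3 (0.053). Another 2 X-linked neighbours in the GABRE gene, miR-224 (-0.77 ± 0.18) and miR-452 (-0.65 ± 0.22), were called lower at mean levels of 2.98 and 1.64 CPM.

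Among the called rises with a mean of 100 CPM or more, that of miR-1 was the largest. miR-1 is made in skeletal and heart muscle fibres, where it represses HDAC4 and promotes differentiation. It ranged from 102 to 254 CPM on grass (median 203) and from 237 to 462 on concentrate (median 332). Every concentrate library exceeded the grass median, and the ranges met only between 237 and 254 CPM. It was 1.71-fold higher (log2 0.77 ± 0.12, adjusted p = 5.06e-06). With total counts the log2 difference was 0.45 (adjusted p = 0.0282). The counts of miR-1 held fractions, so the setting with fractional counts left out did not test it. Its mean level, 261 CPM, was far below the 70515 CPM of miR-133a, and the reason was not tested.

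The other muscle-fibre miRNAs did not pass. Of 7 tested myomiRs 1 was higher and 0 lower (median log2 0.12). miR-486 stood at 0.28 ± 0.14 (adjusted p = 0.15), miR-133a at 0.12 ± 0.16 (0.628), miR-133b at -0.03 ± 0.19 (0.933) and miR-206 at 0.44 ± 0.21 (0.119). The slow-fibre pair encoded in myosin genes stood at 0.02 ± 0.14 (miR-208b) and 0.10 ± 0.17 (miR-499). miR-133a, which is transcribed with miR-1 from the same loci, ranged from 30837 to 106640 CPM on grass (median 71043) and from 41473 to 112170 on concentrate (median 75507), so its groups overlapped almost wholly.

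Members of the miR-378 family split. miR-378 lies in the gene of the metabolic coactivator PGC-1beta and is linked to mitochondrial energy use. miR-378b ran from 354 to 827 CPM on grass (median 649.5) and from 623 to 1225 on concentrate (median 1068), 1.66-fold higher (log2 0.73 ± 0.12, adjusted p = 2.05e-05). On concentrate 2 high-RFI steers lay below the grass median, at 623 and 648 CPM, and the other 14 libraries above it. miR-378d ran from 13.8 to 43.0 CPM (median 32.5) and from 33.9 to 67.4 (median 58.2), with 16 of 16 concentrate libraries above the grass median (log2 0.81 ± 0.14, adjusted p = 2.56e-05). The far more abundant miR-378, with medians of 17739 and 19653 CPM, stood at 0.17 ± 0.13 (adjusted p = 0.332), and miR-378c at -0.03 ± 0.17 (adjusted p = 0.933). With total counts the miR-378b difference was 0.39 (adjusted p = 0.0749).

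Of 5 miR-29 family names tested, which include both arms of miR-29d, 3 were higher and 0 lower (median log2 0.48). miR-29a, miR-29b and miR-29c repress collagens and other matrix genes. miR-29c ran from 100 to 257 CPM on grass (median 171) and from 196 to 340 on concentrate (median 249), above the grass median in 16 of 16 concentrate libraries (log2 0.48 ± 0.11, adjusted p = 0.00077). miR-29b had medians of 14.7 and 22.4 CPM (0.59 ± 0.13) and miR-29d-5p of 51.2 and 73.9 (0.67 ± 0.18). The other arm of that precursor, miR-29d-3p, was not called (0.30 ± 0.20, adjusted p = 0.292, mean 3.03 CPM). miR-29a, the most abundant member, stood at 0.14 ± 0.09 (adjusted p = 0.27). With total counts 0 of the 5 were called and the median was 0.17, with no member called in the other direction.

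Of 6 miR-30 family members 2 were higher, 0 lower (median log2 0.15). miR-30e-5p, from an intron of NFYC together with miR-30c, rose from a median of 6501 to 9032 CPM, with ranges of 3819 to 9749 and 6113 to 11527 (log2 0.44 ± 0.12, adjusted p = 0.0065). miR-30c rose with it (0.41 ± 0.11, medians of 1195 and 1554 CPM), while miR-30a-5p stood at 0.18 ± 0.10 (adjusted p = 0.172). Both calls were lost with total counts, where the family's median was -0.14. miR-365-3p, a miRNA tied to brown fat and muscle differentiation, ran from 144 to 353 CPM on grass (median 208) and from 208 to 426 on concentrate (median 310), a log2 difference of 0.53 ± 0.12 (adjusted p = 0.000691), not called with total counts (0.21, adjusted p = 0.354). miR-502b stood at 0.49 ± 0.16 (adjusted p = 0.0287) and was not called without the pair of libraries standing apart (0.39, adjusted p = 0.0727). With total counts it was not called either (0.20, adjusted p = 0.32). The miR-502b call was also lost with no filter (adjusted p = 0.0516), without the steer sampled on both diets (0.061) and in 2 of 32 fits that left out 1 library. In its X-linked cluster of 8 tested miRNAs, miR-660 was lower, miR-502b higher, and the median -0.00 to 2 decimals.

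Blood-cell miRNAs had a wide spread on both diets. miR-451, the most abundant miRNA of red cells, ran from 787 to 10830 CPM on grass (median 2893) and from 758 to 22627 on concentrate (median 5417). The groups overlapped almost wholly and the log2 difference of 0.90 ± 0.42 did not pass (adjusted p = 0.112), nor did that of miR-144 (0.56 ± 0.41, adjusted p = 0.332). Of 8 leukocyte markers 2 were higher and 0 lower (median log2 0.33), with a summed level between 417 and 1583 CPM on grass and between 441 and 2204 on concentrate. The 2 were the lymphocyte miRNAs miR-342 (0.31 ± 0.10, adjusted p = 0.0192) and miR-150 (0.45 ± 0.17, adjusted p = 0.0474). The miR-150 call was lost in 24 of 32 fits that each left out 1 library, the lowest difference there being 0.38, and that of miR-342 in 11 of 32. With the animal as a block miR-150 was not called (0.45, adjusted p = 0.0564), which left 1 of the 8. With total counts, with total counts without miR-10b and with no filter 0 of the 8 were called, and with total counts their median was -0.05. miR-142-5p (0.35 ± 0.27), miR-223 (0.42 ± 0.30) and miR-155 (-0.16 ± 0.20) did not pass. Whether blood in the samples has a part in the rises was not tested.

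In the remaining cell-type lists 1 miRNA was called. Neither endothelial arm of miR-126 passed (-0.11 ± 0.09 for miR-126-3p, 0.06 ± 0.10 for miR-126-5p), nor did the smooth-muscle miRNAs miR-143 (-0.38 ± 0.18, adjusted p = 0.116) and miR-145 (0.06 ± 0.26). With total counts miR-143 was called lower (-0.70, adjusted p = 0.0195), and without the pair of libraries standing apart it stood at -0.20 (adjusted p = 0.34). Of 4 tested liver and gut miRNAs miR-192 was higher (0.23 ± 0.08, adjusted p = 0.0305), and it was not called in 19 of 32 fits that left out 1 library. Of the liver list miR-885 stood at 0.60 ± 0.24 (adjusted p = 0.0639), and miR-122, the hepatocyte miRNA, had 8 counts in all 32 libraries together. The only epithelial miRNA tested, miR-141, stood at 0.55 ± 0.33 (adjusted p = 0.227), and of 2 neuronal miRNAs tested 0 passed.

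Several families that are often tied to growth or metabolism had no call in either direction by edgeR: let-7 with miR-98 (0 of 10, median 0.03), the miR-17-92 clusters that drive proliferation (0 of 11, median 0.19), miR-15 and miR-16 (0 of 6, median 0.14), and the list on hypoxia and mitochondrial function (0 of 11, median -0.11). In the next 3 lists the shares called were read against the 9.87% higher and 13.8% lower among all tested miRNAs, and nothing particular to a list was tested. Of 21 satellite-cell and myoblast regulators 4 were lower (miR-27b, miR-181b, miR-214 and miR-128) and 1 higher, miR-34c. The miR-34c call rested on low-RFI concentrate replicate 2, at 22 CPM against at most 4.79 elsewhere: the log2 difference of 1.22 ± 0.45 was 0.35 without it (adjusted p = 0.443). Of 25 lipid and adipogenesis miRNAs 2 were higher, miR-378b and miR-193a-5p, and 3 lower, miR-21-5p, miR-224 and miR-27b. The miR-193a-5p call (0.40 ± 0.14, adjusted p = 0.0311) was lost in 12 of 32 fits that left out 1 library and in 6 other settings. Of 22 insulin and glucose miRNAs 2 were higher, miR-29b and miR-29c, which repress insulin signalling genes in liver and muscle, and 1 lower, miR-424-5p. miR-181b was the single call among 4 miR-181 members, and miR-27b that among 7 miRNAs of the miR-23, miR-27 and miR-24 clusters.

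Some names had fractional counts that fit another divisor in each phase. In 60 names the Holstein-Friesian values held fractions, which fit whole reads divided by a small integer. For 8 tested names the smallest divisor that fit the grass libraries was not the one that fit the concentrate libraries. miR-2285av, the largest fall with 10 CPM or more (18.9 to 28.5 CPM on grass, 3.12 to 6.82 on concentrate, log2 -2.22 ± 0.10), had a divisor of 9 on grass and 8 on concentrate. miR-2284h-5p (1.18 ± 0.12) had 2 on grass and 1 on concentrate, and miR-2285g (0.57 ± 0.15) had 3 and 1. Whether the counting itself changed between the phases, and its part in these 3 calls, was not tested. The 3 most abundant names with a changed divisor, miR-181a (-0.14 ± 0.09), miR-19b (-0.02 ± 0.36) and let-7a-3p (0.27 ± 0.14), were not called. Of 39 tested members of miR-2284/miR-2285, a family found in ruminants, 4 were higher and 1 lower (median 0.23). Among all tested miRNAs 9.87% were higher and 13.8% lower. The 5 calls of the family include the 3 above. Several names of this family have nearly the same counts as another, so their split is uncertain.

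Among scarcer miRNAs, named after their values were seen, the fall of miR-129-3p was the largest (-2.47 ± 0.65, mean 1.70 CPM), and the largest rises were those of miR-211 (1.44 ± 0.38, mean 1.12 CPM), miR-2415-3p (1.35 ± 0.44, mean 0.917 CPM) and miR-11977 (1.34 ± 0.23, mean 3.37 CPM). The grass level of miR-129-3p was uneven, with a highest library of 16.9 CPM against a median of 1.58, and its concentrate median was 0.318. Its call held without each of the 32 libraries, but limma-voom called neither it nor miR-2415-3p. The miR-2415-3p call was also lost with total counts, with no filter and in the fit of 64 libraries. It was lost as well in 2 of 32 fits that left out 1 library.

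Neighbouring and paired miRNAs moved alike in part. In RefSeq's order of genes (assembly ARS-UCD2.0, where 289 of the 304 tested names matched), the longest run of neighbours was the distal DLK1-DIO3 group, with 12 of 15 members lower (median -0.85). The run of miR-369 and miR-410 had 3 of 3 lower, and that of miR-424-5p, miR-450b and miR-542-5p 3 of 3. Of 24 precursors with both arms tested, 3 had both arms called, in the same direction (miR-369 and miR-411c lower, miR-6119 higher), 9 had 1 arm called and 0 had arms called in opposite directions. Neither miR-6119 arm was called with total counts, and the 5p arm was also lost with no filter, without the steer sampled on both diets and without the pair of libraries standing apart. Across the 24 precursors the differences of the arms had a Pearson r of 0.72, a description only, since both arms come from the same libraries. For miR-21 the abundant 5p arm fell while the 3p arm, at 8.15 CPM, stood at -0.20 ± 0.20. For miR-151 the 5p arm, at 789 CPM, was called lower. Its 3p arm had a similar level, 797 CPM, and stood at -0.05 ± 0.08 (adjusted p = 0.711). For miR-22 the scarcer 5p arm was called at 0.32 ± 0.12, a call lost in 21 of 32 fits that left out 1 library, and the 3p arm, at 23686 CPM, stood at 0.08 ± 0.12.

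Separately by RFI class, 47 miRNAs were called in low-RFI steers (15.5%; 20 higher and 27 lower) and 31 in high-RFI steers (10.2%; 9 higher and 22 lower) by edgeR. Of these, 23 were called in both, all in the same direction, which is 48.9% of the low-RFI and 74.2% of the high-RFI calls. All 72 miRNAs called over both classes had the same sign in each, though each class supplied 16 of the 32 libraries behind those calls. miR-381 stood at -1.18 ± 0.20 in low and -1.34 ± 0.20 in high RFI, miR-127 at -0.96 ± 0.18 and -0.98 ± 0.18, and miR-1 at 0.87 ± 0.17 and 0.68 ± 0.17. The DLK1-DIO3 median in high-RFI steers was -0.86.

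The test of the difference between the classes called 0 of 304 miRNAs (0%) by edgeR, with 14 at an unadjusted p under 0.05 and a smallest adjusted p of 0.448. DESeq2 and limma-voom also called 0. The smallest p-values belonged to miR-27a-5p (low minus high -1.22 ± 0.35; its median went from 2.2 to 1.1 CPM in low RFI and from 1.6 to 1.9 in high RFI), miR-7 (1.12 ± 0.39) and miR-191 (0.52 ± 0.19). miR-21-5p stood at -1.18 ± 0.25 in low and -0.43 ± 0.25 in high RFI, and miR-150 at 0.11 ± 0.22 and 0.78 ± 0.22, differences that did not pass (edgeR adjusted p = 0.892 for both). These failed tests do not show that the classes responded alike.

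**Figure D3:**
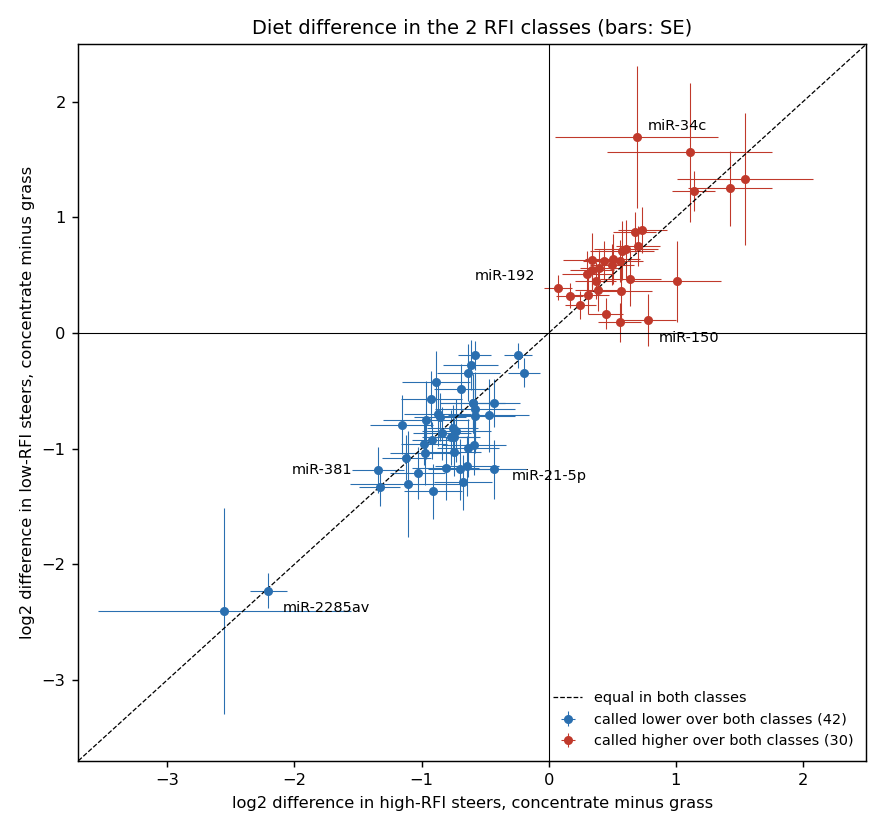
Log2 difference between concentrate and grass in low-RFI steers (vertical axis) against that in high-RFI steers (horizontal axis) for the 72 called miRNAs, with bars of 1 standard error and a dashed line where both are equal. All 72 points lie in the 2 quadrants of equal sign, miR-21-5p lies farther from 0 in low RFI and miR-150 in high RFI, and 0 differences between the classes were called.

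The breeds differed in diet response for 11 of 318 miRNAs (3.46%) in the fit of all 64 libraries, 7 with a higher and 4 with a lower diet difference in Holstein-Friesian than in Charolais steers. Some Charolais steers also gave a library on both diets, 1 of them under another RFI class each time. The fit took all libraries as separate animals. With the animal as a block 12 were called, 8 higher and 4 lower. In the fit without a block Holstein-Friesian steers had 77 calls (24.2%) and Charolais steers 66 (20.8%). Called in both were 28, which is 36.4% of the Holstein-Friesian and 42.4% of the Charolais calls, and 1 of them, miR-423-3p, had opposite directions. Of the 77 Holstein-Friesian calls, 60 had the same sign in Charolais steers, called there or not. miR-423-3p rose in Holstein-Friesian steers from 90.1 ± 13.5 to 107 ± 14.5 CPM and fell in Charolais steers from 121 ± 17.6 to 102 ± 5.68 (SD, n = 16 each), a difference of 0.50 ± 0.10 (adjusted p = 0.000665). With total counts its Holstein-Friesian difference was -0.08 in the fit of 32 libraries.

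miR-378b stood at 0.74 ± 0.14 in Holstein-Friesian and -0.11 ± 0.14 in Charolais steers (adjusted p of the difference 0.00338), and miR-365-3p at 0.53 ± 0.11 and -0.07 ± 0.11 (0.0136). For miR-378d (0.82 ± 0.15 and 0.09 ± 0.15, 0.0345) and miR-1 (0.78 ± 0.13 and 0.17 ± 0.13, 0.0377) the call of the difference was lost without the pair of libraries standing apart (adjusted p = 0.0929 for both) and in most other settings. miR-331-3p stood at 0.30 ± 0.15 and -0.50 ± 0.15. For miR-2285ba (0.41 ± 0.20 and -0.60 ± 0.20) the call of the difference was also lost without that pair (adjusted p = 0.0666), and in 4 of 32 fits that left out 1 library. On grass miR-378b was lower in Holstein-Friesian than in Charolais steers, at 584 ± 142 against 832 ± 186 CPM, and on concentrate higher, at 974 ± 183 against 775 ± 273 (SD, n = 16 each).

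Of the 4 with the lower difference in Holstein-Friesian steers, miR-152 stood at -0.75 ± 0.15 against 0.33 ± 0.16 in Charolais (difference -1.08 ± 0.22, adjusted p = 0.000665), and this call held in every setting and without any 1 Holstein-Friesian library. miR-21-5p stood at -0.80 ± 0.16 against 0.06 ± 0.16 (0.0177), where grass libraries averaged 2797 ± 1891 CPM in Holstein-Friesian and 1598 ± 748 in Charolais steers. The other 2 were imprinted-cluster members, miR-380-3p (-1.32 ± 0.12 against -0.49 ± 0.12) and the scarce miR-376b (-0.89 ± 0.20 against 0.17 ± 0.21). Of 26 tested cluster members 24 were lower in Holstein-Friesian and 15 in Charolais steers, with medians of -0.87 and -0.59. The Holstein-Friesian difference was the more negative in 25 of 26, and for 24 of the 26 the difference between the breeds was not called. The X-linked cluster had medians of -0.87 and -1.01, with no difference called. The erythrocyte pair had medians of 0.67 and 1.72, with 0 and 2 called higher. The miR-17-92 clusters had 0 of 12 called in Holstein-Friesian and 7 called higher in Charolais steers, again with no difference called by edgeR.

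**Figure D4:**
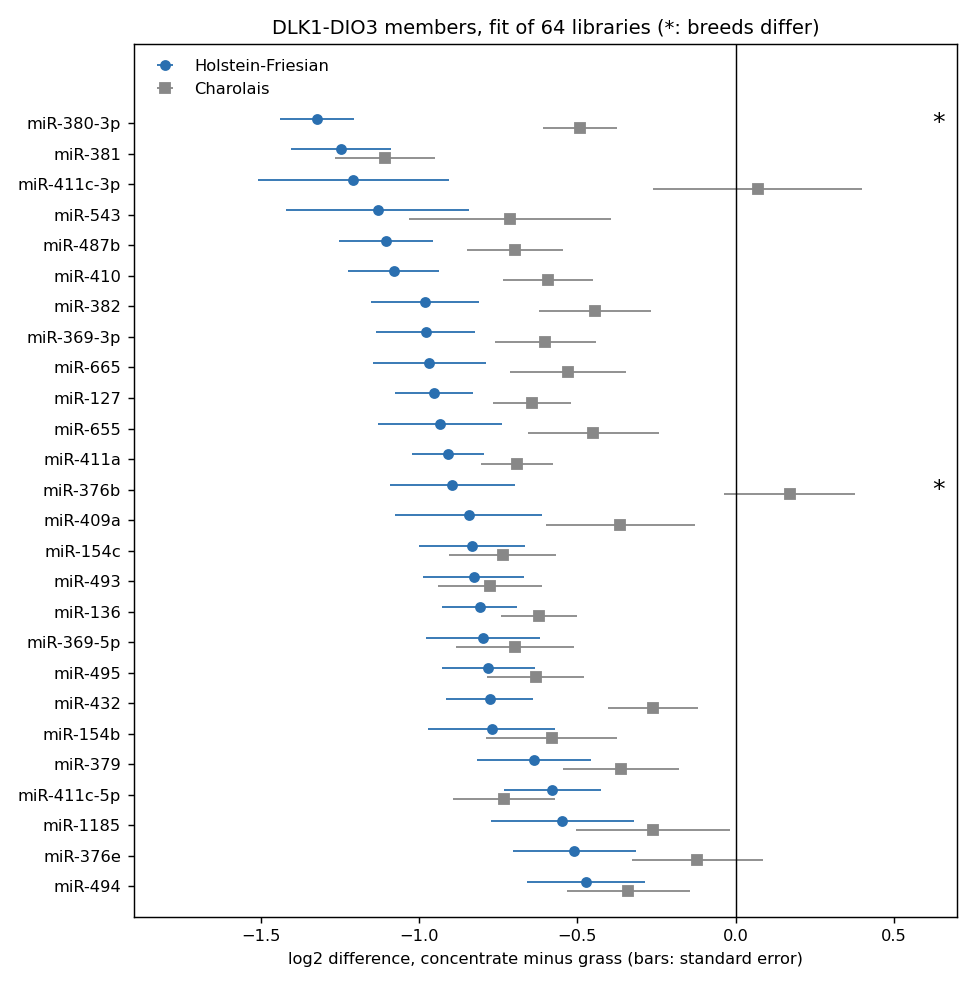
Log2 difference between concentrate and grass (horizontal axis, bars of 1 standard error) for 26 DLK1-DIO3 miRNAs in Holstein-Friesian (blue circles) and Charolais steers (grey squares), from the fit of 64 libraries. An asterisk marks the 2 members whose difference between breeds was called, miR-380-3p and miR-376b, and in Holstein-Friesian steers all 26 lie below 0.

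**Figure D5:**
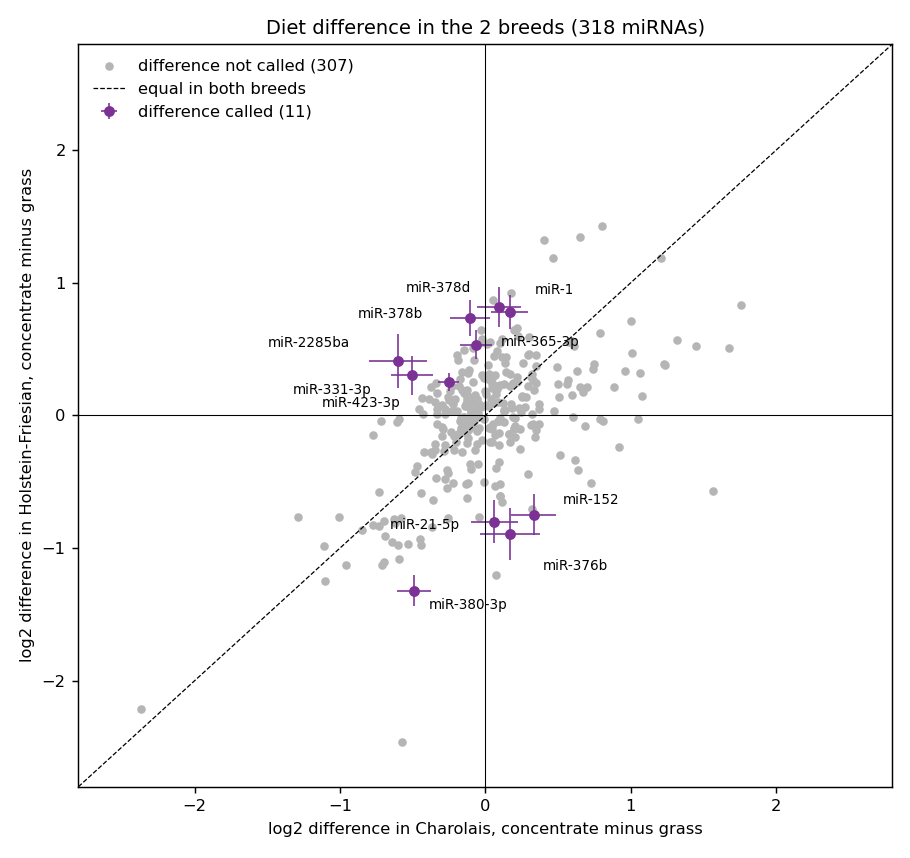
Log2 difference between concentrate and grass in Holstein-Friesian steers (vertical axis) against that in Charolais steers (horizontal axis) for 318 miRNAs, with a dashed line where both are equal. The 11 miRNAs whose difference was called are purple, with bars of 1 standard error, and 7 of them lie above and 4 below the line.

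The steer sampled on both diets showed the same signs for most calls. In it 36 of the 42 miRNAs called lower were lower on concentrate than on grass, and 23 of the 30 called higher were higher. Its libraries are part of the test, so this is no separate support. With the animal as a block, 72 miRNAs were called, 30 higher and 42 lower, and of the calls above miR-150 was the one lost.

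The share of counts taken by miR-10b was 53.9% ± 11.2 on grass and 61.2% ± 8.73 on concentrate (SD, n = 16 each), a difference of 7.30 percentage points (two-sided permutation test, p = 0.0413). Shares ran from 19.3% to 68.5% on grass and from 45.8% to 74.5% on concentrate, so the groups overlapped widely. The difference rested on high-RFI grass replicate 1, without which it was 5.003 (permutation p = 0.0829), and the p was over 0.05 in 14 of 32 cases in which 1 library was left out. In the fit with TMM scaling miR-10b itself stood at 0.46 ± 0.23 (adjusted p = 0.144).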

How the data were processed

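miRNAs were sequenced in skeletal muscle, in 32 Holstein-Friesian libraries and 32 Charolais libraries used for the comparison of breeds. Per the labels' protocols, RNA was extracted with a Qiagen RNeasy Plus Universal kit and sequenced from Illumina TruSeq stranded RNA libraries. The submitters' processing notes name the build ARS-UCD1.2, cutadapt 2.6, edgeR 3.5, R 3.4 and FastQC 0.11.8, with no role. To judge from fractions among mostly whole numbers, the values are estimated counts, which the authors deposited without normalization for 1030 names. Small-RNA selection, aligner and counter are not named in any source used here. Of the names 261 were at 0 in every Holstein-Friesian library, and miR-2285b (3 empty cells) was left out. Fractions were tested to 0.001, and divisors up to 12 within 0.02.

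Counts were rounded and tested in R 4.3.3 with edgeR 4.0.16 (TMM factors of 0.512 to 2.18, filterByExpr over 4 groups, robust quasi-likelihood, RFI class plus diet, 29 residual degrees of freedom). The names not tested held 0.00735% of the counts. Contrasts within RFI classes came from 4 group means and those between breeds from 8 group means over 64 libraries. Errors of log2 differences are standard errors from the test statistic. Adjusted p-values (Benjamini-Hochberg over all names tested) are edgeR's unless another tool is named. The method was tested on simulated data with known changes. Alternatives were other scalings and filters, DESeq2 1.42.0, limma-voom (limma 3.58.1), fractional names left out, an animal block, and libraries left out. Leaving out the pair of libraries standing apart was chosen after seeing the data.

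The comparison and its 25 lists were chosen with earlier results of these data known. Named miRNAs were the 8 largest called rises and falls with 10 CPM or more, the 8 most abundant, of each list the 4 most abundant and the most changed called member, up to 8 for each test of a difference (3 where none was called) and 3 with a changed divisor. Others were named after their values were seen, to fill out small counts. Seed families were not analysed here.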

Additional observations from a re-analysis of the deposited data

Results flagged for a closer look

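Levels of 24 miRNAs (the largest called changes and the most abundant) were screened in the 4 groups of 8, and in 10 of 96 cases 1 library stood far from its group. The cutoff used gives about 1 in 20 for independent, normally distributed values. These levels share libraries and were not checked for that distribution, so no chance rate is given for them. High-RFI concentrate replicate 3 was the highest of its group for 3 miR-29 members: miR-29d-5p at 135.5 CPM (others 49.3 to 86.0), miR-29b at 34.4 (others 19.5 to 25.6) and miR-29c at 339.9 (others 210.2 to 265). Low-RFI concentrate replicate 5 had miR-29d-5p at 145 CPM (others 60.6 to 95.1). All 3 miR-29 calls held without each of the 32 libraries. High-RFI concentrate replicate 6 had miR-380-3p at 14.55 CPM (others 7.597 to 10.3).

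On grass, low-RFI replicate 6 had miR-381 at 210.1 CPM (others 92.8 to 133), low-RFI replicate 7 miR-502b at 475.5 CPM (others 157 to 264) and high-RFI replicate 8 miR-424-5p at 80.2 CPM (others 26 to 50.3). Low-RFI replicate 2 had miR-143 at 114100 CPM (others 21060 to 45010), and low-RFI replicate 3 had miR-10a at 29960 CPM (others 11640 to 16970).

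A difference in diet response between the breeds, Holstein-Friesian minus Charolais, was called by edgeR for 11 miRNAs. It was above 0 for miR-423-3p (0.50), miR-378b (0.84), miR-365-3p (0.60), miR-331-3p (0.81), miR-2285ba (1.01), miR-378d (0.72) and miR-1 (0.61), and below 0 for miR-380-3p (-0.83), miR-152 (-1.08), miR-21-5p (-0.86) and miR-376b (-1.06). The breeds' libraries share the order of diets, so phase and diet cannot be told apart in either breed.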

How the results depend on the processing

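Of the 72 calls, 53 held without each of the 32 libraries and 39 in all 14 other settings that tested them. Leaving out 1 library gave 61 to 82 calls over both RFI classes, 34 to 55 in low RFI, 23 to 40 in high RFI, 0 for the difference between RFI classes and 8 to 29 for that between breeds. It rose to 29 without low-RFI grass replicate 7, to 23 without high-RFI concentrate replicate 6 and to 17 without high-RFI grass replicate 4 or replicate 7. The miR-10b difference ran from 5.003 to 8.33 points with 1 library left out, and was 4.85 without the steer sampled on both diets (permutation p = 0.104) and 4.91 without the pair of libraries standing apart (p = 0.0993). With total counts 11 miRNAs were called in high RFI and 1 for the breed difference, miR-152; without miR-10b in the totals the breed difference had 7. With only miRNAs of 10 CPM or more, fewer were tested (174) and 42, 27 and 20 were called over both classes, in low and in high RFI. The fit of 64 libraries called 48 in high RFI. With total counts the 5 called rises that changed sign included miR-192 (-0.0764), miR-342 (-0.00756) and miR-423-3p (-0.0824), none called there, and some miRNAs that were not called, such as miR-486 (-0.02) and miR-133a (-0.20), also changed sign. The replicate block by animal (1 Holstein-Friesian pair) kept the count at 72, with the miR-150 call lost (adjusted p = 0.0564). In the fit of 64 libraries the block also took in the Charolais pairs, and 12 breed differences were called. For the other changes the cause was not tested.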
